A study of Mus musculus with 24 samples.

Results

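The 8 genes Ybx2, Ybx3, Dazl, Boll, Ddx25, Papolb, Cpeb1 and Celf1 encode germ cell proteins that bind, store or polyadenylate mRNA. They were picked by symbol, by a rule that uses no measured value but was set with earlier results of these data known, from the 24456 genes listed in each count table. All 8 were listed, and all 8 were among the 17170 genes that passed the filter on low counts. The tables come from a study of ATAD2, a chromatin protein with an ATPase domain and a bromodomain, in which testes of wild-type (WT) mice and of mice homozygous for an Atad2 knockout (KO) were taken 20, 22, 24 and 26 days after birth. In the KO allele a lacZ cassette traps the Atad2 transcript and gives a non-functional fusion protein, and Cre under the ubiquitous CMV promoter has removed the selection cassette and 1 exon, so the loss is not limited to germ cells and WT mice carry neither change. Days 20 and 22 have 4 libraries of each genotype and days 24 and 26 have 2 of each. The labels name no strain. The study's methods call the replicates biological. For day 20 they describe fewer than are labelled, and each labelled library was kept here.

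In the first wave of spermatogenesis, spermatocytes pass through the long pachytene stage, divide and become round spermatids, which then elongate. Much of the mRNA that spermatids need is made before the chromatin closes, held in protein particles and translated later. Y-box proteins such as YBX2 (MSY2) and YBX3 (MSY4) coat such mRNAs, DAZ-family proteins and CPEB1 act on translation and on poly(A) tails, the helicase DDX25 carries mRNAs out of the nucleus and into the chromatoid body, and the testis poly(A) polymerase PAPOLB lengthens tails in the cytoplasm. RNA of a whole testis mixes all its cells, so that fewer cells of a type and less RNA per cell cannot be told apart in any value below.

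Counts assigned to genes ran from 10709667 to 19491935 per library, and levels are given as CPM, counts scaled to the library's size with TMM factors. Atad2 itself was lower in each KO library than in every WT library of the same day. The library WT_d20_2 (WT, day 20, replicate 2) stood apart, with 13.7% of its read pairs aligned to several places and 3.26% of mitochondrial rRNA, against 4.74% to 9.16% and 0.170% to 1.06% in the other 23 libraries, and values without it are given beside the day 20 results that it moves most. In cell markers WT_d20_2 also differed from the other WT libraries of day 20. Its pachytene spermatocyte markers summed to 902 CPM against 1400 to 1746 CPM, and its early meiotic markers to 1187 CPM against 739 to 806 CPM. The labels name testis as the source, while their protocol text speaks of purified spermatogenic cells. Markers of Sertoli cells summed to between 965 and 2244 CPM, and markers of Leydig, peritubular, spermatogonial and meiotic cells were present in all 8 groups, while 3 of the 4 blood markers, all of them globin genes, were listed at 0. Markers of epididymis, a neighbouring tissue, summed to under 3 CPM in 15 libraries and to between 14.1 and 685 CPM in the other 9.

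Ordered by level per length (CPM per kb of exon), the 8 genes covered a wide range. In WT at day 20 Ybx2 was at 276 ± 121 CPM per kb, Dazl at 185 ± 73.6, Ybx3 at 113 ± 45.6, Boll at 62.1 ± 21.4, Papolb at 46.6 ± 9.15, Ddx25 at 31.4 ± 7.02, Celf1 at 25.8 ± 1.36 and Cpeb1 at 7.55 ± 1.06 (SD, n = 4). The library ranges of each pair of neighbours in that order overlapped, except those of Celf1 and Cpeb1. Without WT_d20_2 the order was the same, with Ybx2 at 331 ± 58.0, Dazl at 148 ± 12.3, Ybx3 at 133 ± 24.0 and Boll at 52.1 ± 9.54 CPM per kb (SD, n = 3), and Ybx2 no longer overlapped with Dazl, Ybx3 with Boll, or Papolb with Ddx25. In WT at day 26 the order was Ybx2 at 559 ± 60.2 CPM per kb, Ybx3 at 272 ± 24.1, Papolb at 154 ± 10.0, Dazl at 113 ± 6.88, Boll at 67.6 ± 1.96, Ddx25 at 53.8 ± 2.05, Celf1 at 18.6 ± 0.498 and Cpeb1 at 4.42 ± 0.0609 (SD, n = 2), and no neighbours overlapped. Ybx2 was thus the most abundant of the 8 transcripts per length and Cpeb1 the least on both days, while Papolb moved from the fifth to the third place and Dazl from the second to the fourth.

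**Figure D1:**
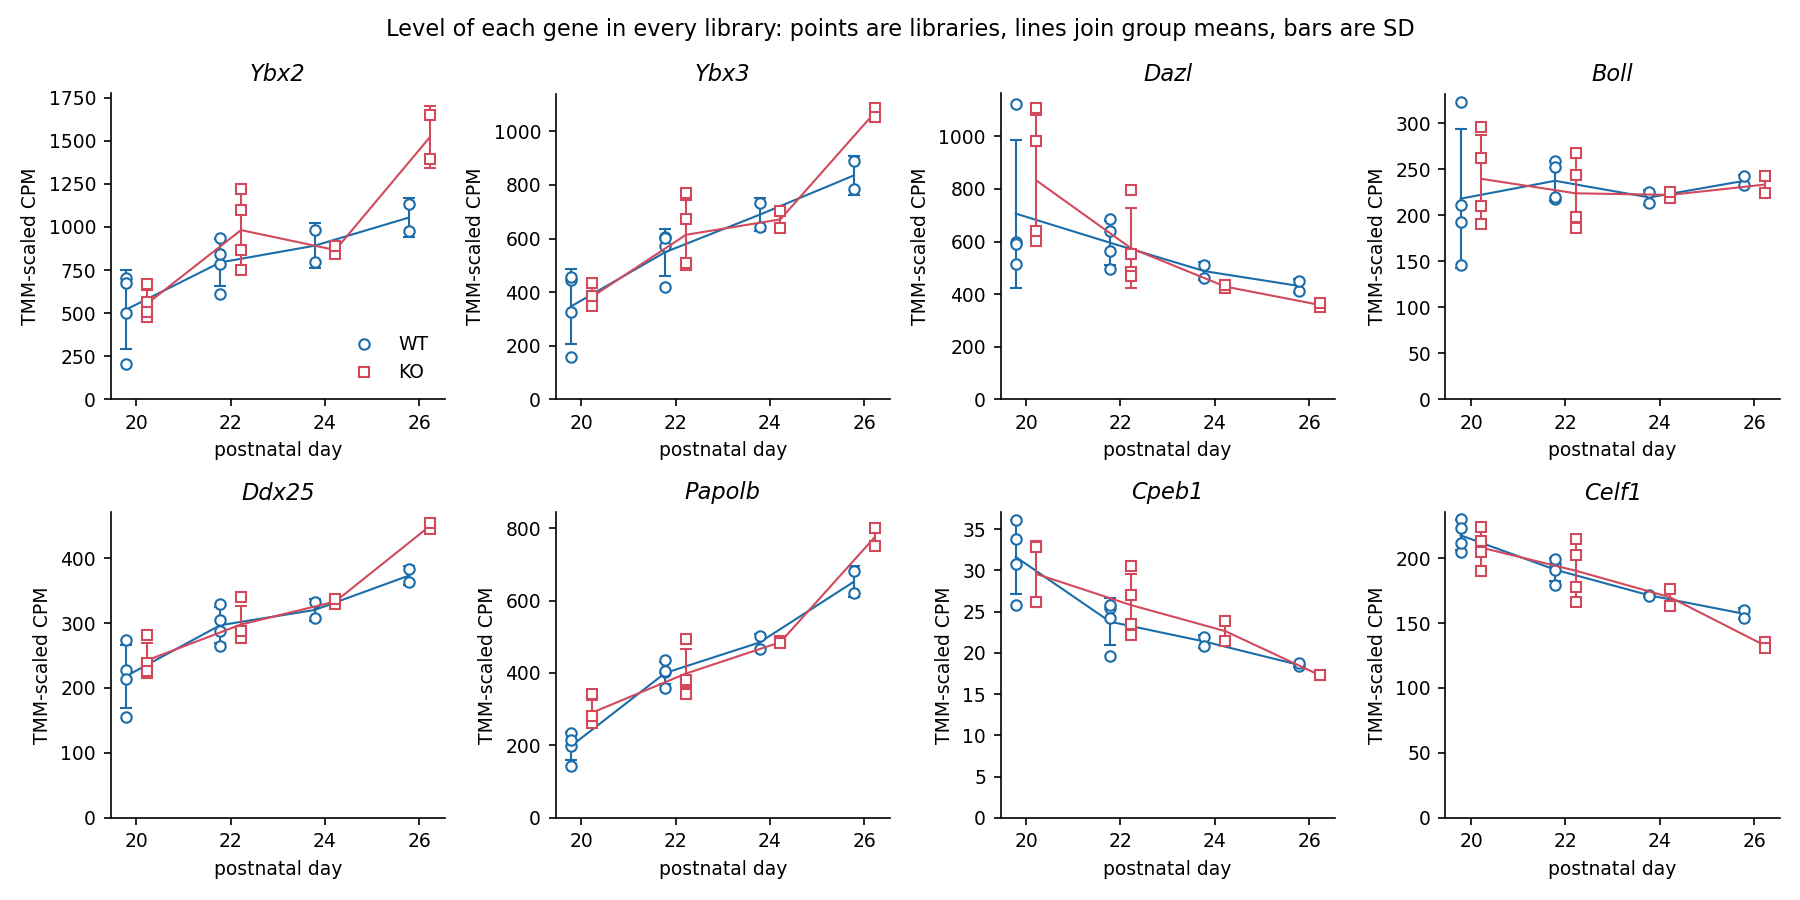
Level of each of the 8 genes in TMM-scaled CPM (vertical axis, from 0) against postnatal day, with circles for WT libraries, squares for KO libraries, lines through group means and SD bars. Ybx2, Ybx3, Ddx25 and Papolb lie higher at day 26 than at day 20 in both genotypes, Dazl, Cpeb1 and Celf1 lie lower at day 26 than at day 20, the group means of Boll lie between 218 and 240 CPM, and the WT library at 205 CPM for Ybx2 and at 1124 CPM for Dazl on day 20 is WT_d20_2.

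**Figure D2:**
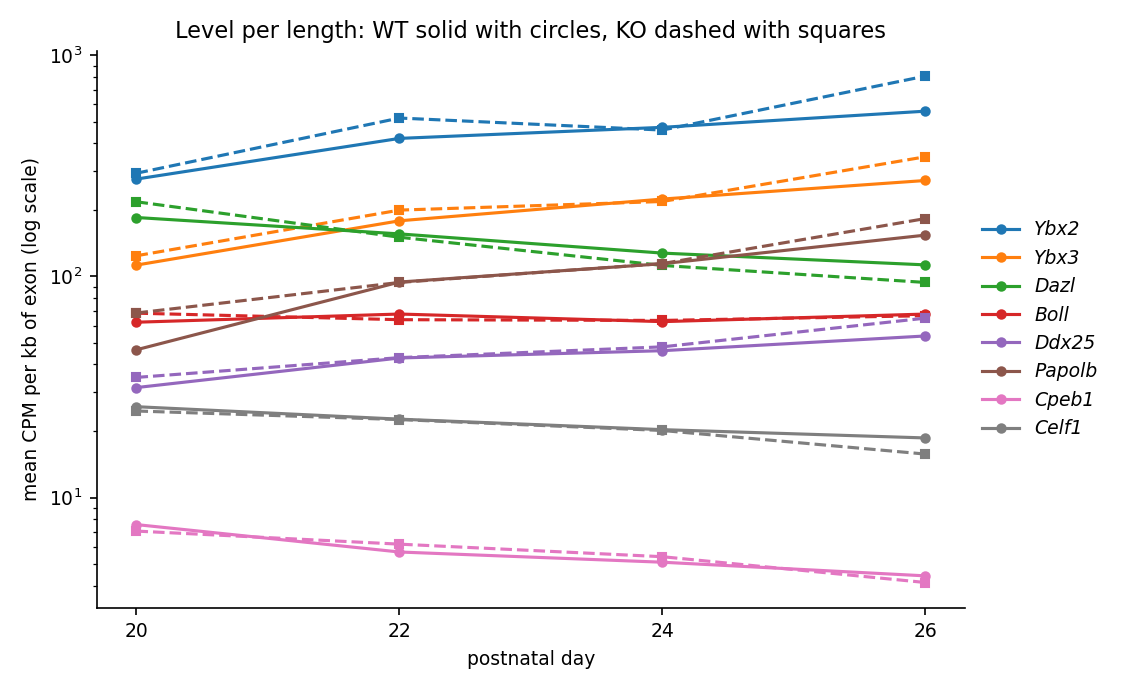
Mean level per kb of exon (logarithmic vertical axis) against postnatal day, with WT as solid lines and circles and KO as dashed lines and squares. Ybx2 lies above the other genes and Cpeb1 below them on each day, and the rising Papolb line crosses the falling Dazl line.

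Start-site regions are shown for the 4 members that rose with age in both genotypes (Ybx2, Ybx3, Ddx25 and Papolb) and for the 2 whose windows held the CRE core described next (Dazl and Cpeb1). RefSeq held 10 windows (250 bases before to 50 after a start, build GRCm38.p6) for the 8 genes. Each stretch below runs 5′ to 3′ on the gene's strand and ends at the base before an annotated first exon (for Cpeb1, the first exon of its shorter transcripts, inside an intron of longer ones), and capitals mark matches to the motifs searched.
Ybx2 (chr11:69935676-69935795, plus strand): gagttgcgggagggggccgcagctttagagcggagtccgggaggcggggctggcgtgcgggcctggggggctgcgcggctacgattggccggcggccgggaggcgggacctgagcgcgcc
Ybx3 (chr6:131388477-131388596, minus strand): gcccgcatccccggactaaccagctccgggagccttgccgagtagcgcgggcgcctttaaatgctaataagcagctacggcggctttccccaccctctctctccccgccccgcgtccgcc
Ddx25 (chr9:35558529-35558594, minus strand): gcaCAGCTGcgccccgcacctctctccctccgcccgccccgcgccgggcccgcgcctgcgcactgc
Papolb (chr5:142530077-142530196, minus strand): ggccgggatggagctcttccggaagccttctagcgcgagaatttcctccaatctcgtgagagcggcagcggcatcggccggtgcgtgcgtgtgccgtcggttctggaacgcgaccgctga
Dazl (chr17:50293637-50293756, minus strand): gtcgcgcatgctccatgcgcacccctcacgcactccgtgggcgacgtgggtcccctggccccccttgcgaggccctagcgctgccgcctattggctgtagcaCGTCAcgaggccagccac
Cpeb1 (chr7:81454759-81454878, minus strand): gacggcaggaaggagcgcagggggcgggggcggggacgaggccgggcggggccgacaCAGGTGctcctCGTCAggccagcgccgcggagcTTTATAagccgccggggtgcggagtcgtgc

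The windows of the 8 genes were rich in G and C. Their GC content ran from 58.7% (the upstream window of Boll) to 78.0% (the first window of Ybx2), against a median of 59.3% over the 16108 windows of tested genes, and they held 13 to 41 CpG dinucleotides against a median of 18. Both strands were searched for the cAMP response element TGACGTCA, which no window of the 8 genes held and 1.79% of all 32851 windows did. Its core TGACG was found in Dazl and Cpeb1, starting 34 and 52 bases before the RefSeq start, and in 20.8% of all windows. The MYB core CNGTTA was in none of the 8 genes (23.3% of all windows), and its other form CNGTTG was in the second window of Boll (35.0%). The E-box CANNTG was in 6 of the 8 genes (72.3%), the X-box-like GTTGCC in the second window of Ybx2 (12.5%), and the TATA box TATAAA in Cpeb1 on the reverse strand, 30 bases before the start (13.6%). These matches describe letters in these windows and no binding was measured.

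Ybx2 and Ybx3, the Y-box mRNA storage proteins, rose with age. Ybx2 lies at chr11:69935796-69941605 on the plus strand of mm10. In WT it was at 701, 205, 674 and 500 CPM at day 20, at 936, 610, 787 and 844 CPM at day 22, at 983 and 800 CPM at day 24 and at 974 and 1135 CPM at day 26. The day 26 libraries lay above all those of day 20, and the value of 205 CPM belongs to WT_d20_2. In KO it was at 476, 506, 562 and 666 CPM at day 20, at 750, 1096, 864 and 1218 CPM at day 22, at 845 and 887 CPM at day 24 and at 1393 and 1647 CPM at day 26. The KO libraries of day 26 were the highest of all 24. From day 20 to day 26 Ybx2 rose by 1.02 on the log2 scale in WT (SE 0.299, edgeR adjusted p = 0.00934), a fold of 2.03 (95% interval 1.32 to 3.12), and by 1.46 in KO (SE 0.297, adjusted p = 0.000432), a fold of 2.75 (1.79 to 4.22). Without WT_d20_2 the WT difference was 0.71 (adjusted p = 0.00761). Without WT_d26 replicate 2 the WT call was lost (0.90, adjusted p = 0.0883).

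Ybx3 (chr6:131364855-131388476, minus strand) went from 346 ± 140 CPM at day 20 (SD, n = 4) to 836 ± 74.2 CPM at day 26 (SD, n = 2) in WT, and from 382 ± 37.1 to 1070 ± 24.4 CPM in KO. The log2 differences were 1.27 in WT (SE 0.265, adjusted p = 0.000593) and 1.49 in KO (SE 0.264, adjusted p = 0.000115), and the WT difference was 0.99 without WT_d20_2 (adjusted p = 0.000195). The level of Ybx2 in CPM was 1.20 to 1.81 times that of Ybx3 in each library, and the mean of this ratio in WT was 1.47 ± 0.115 at day 20 and 1.26 ± 0.0240 at day 26.

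Dazl and Boll encode RNA-binding proteins of the DAZ family, and Dazl fell with age in KO while Boll was not called in either genotype. DAZL promotes translation of bound mRNAs in spermatogonia and spermatocytes, and BOLL, the oldest member of the family, is needed by spermatids. Dazl (chr17:50279395-50293636, minus strand) was in WT at 598, 1124, 513 and 589 CPM at day 20, at 495, 685, 638 and 563 CPM at day 22, at 512 and 463 CPM at day 24 and at 412 and 450 CPM at day 26. In KO it was at 980, 1106, 639 and 601 CPM at day 20, at 795, 482, 468 and 554 CPM at day 22, at 421 and 436 CPM at day 24 and at 352 and 366 CPM at day 26. Each day 26 library lay below every day 20 library of its genotype, and day 20 held 3 libraries at or above 980 CPM, of which WT_d20_2 was the highest. The log2 difference of day 26 against day 20 was -1.21 in KO (SE 0.293, adjusted p = 0.00187), where Dazl fell by a factor of 2.32. In WT it was -0.71 (SE 0.286, adjusted p = 0.0501), which missed the threshold, and -0.44 without WT_d20_2 (adjusted p = 0.127). DESeq2 called Dazl in WT as well, as did 13 of the 24 edgeR fits that left out 1 library each.

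Boll (chr1:55248658-55363469, minus strand) was at 218 ± 75.4 CPM in WT at day 20 (SD, n = 4) and at 238 ± 6.87 CPM at day 26 (SD, n = 2), with 240 ± 47.9 and 234 ± 13.5 CPM in KO. The log2 difference of day 26 against day 20 was 0.12 in WT (95% interval -0.34 to 0.58) and -0.04 in KO (-0.50 to 0.42), with adjusted p-values of 0.677 and 0.896. Its sign turned when WT_d20 replicate 3, the lowest library at 146 CPM, was left out in WT, and in KO under DESeq2's size factors and without KO_d20 replicate 1 or 2 or KO_d26 replicate 1. The ratio of Dazl to Boll in CPM went from 3.22 ± 0.339 at day 20 to 1.81 ± 0.0587 at day 26 in WT, and from 3.42 ± 0.375 to 1.54 ± 0.0445 in KO, without overlap between the 2 days.

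Ddx25 and Papolb rose with age, and Papolb had the largest age change of the 8 genes in WT. Papolb (chr5:142525838-142530076, minus strand) is a single-exon gene inside Radil, on the same strand and with 0 exon bases shared. In WT it was at 234, 197, 144 and 215 CPM at day 20, at 435, 359, 401 and 405 CPM at day 22, at 502 and 467 CPM at day 24 and at 622 and 682 CPM at day 26. In KO it was at 341, 275, 263 and 281 CPM at day 20, at 374, 495, 343 and 381 CPM at day 22, at 488 and 482 CPM at day 24 and at 749 and 801 CPM at day 26. In both genotypes the libraries of day 20 lay below those of day 22, and those of day 24 below those of day 26. The log2 difference of day 26 against day 20 was 1.72 in WT (SE 0.159, adjusted p = 7.94e-08), a fold of 3.30 (95% interval 2.63 to 4.15), and 1.42 in KO (SE 0.159, adjusted p = 1.19e-06), a fold of 2.67 (2.13 to 3.36). Ddx25 (chr9:35536647-35558528, minus strand) went from 218 ± 48.7 to 373 ± 14.2 CPM in WT and from 242 ± 26.6 to 449 ± 6.74 CPM in KO (SD, n = 4 and n = 2). Its log2 differences were 0.78 (SE 0.155, adjusted p = 0.000381) and 0.89 (SE 0.154, adjusted p = 9.01e-05). Papolb stood at 0.919 ± 0.140 of the CPM of Ddx25 in WT at day 20 and at 1.75 ± 0.0474 of it at day 26.

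Cpeb1 and Celf1 fell with age in both genotypes. CPEB1 binds the cytoplasmic polyadenylation element of dormant mRNAs, and CELF1 binds GU-rich elements and acts on splicing, decay and translation in many tissues. Cpeb1 (chr7:81347026-81455465, minus strand) went from 31.6 ± 4.46 to 18.5 ± 0.255 CPM in WT and from 29.6 ± 3.91 to 17.3 ± 0.0301 CPM in KO (SD, n = 4 at day 20 and n = 2 at day 26). The log2 difference was -0.77 in each genotype (SE 0.163 in both, adjusted p = 0.000657 in WT and 0.000588 in KO). Celf1 (chr2:90940382-91019497, plus strand) went from 218 ± 11.5 to 157 ± 4.20 CPM in WT and from 208 ± 14.4 to 133 ± 3.20 CPM in KO, with log2 differences of -0.47 (SE 0.111, adjusted p = 0.00187) and -0.65 (SE 0.112, adjusted p = 8.95e-05). Of the 8 genes Celf1 varied least between replicates at day 20, by 5.29% of its mean in WT (coefficient of variation), where Ybx2 varied by 43.8% with WT_d20_2 and by 17.5% without it.

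Across the 8 genes, 6 were called changed (adjusted p under 0.05) between day 20 and day 26 in WT, 4 higher and 2 lower, in a comparison that called 42.5% of all genes tested, 24.4% higher and 18.1% lower. In KO 7 were called, 4 higher and 3 lower, against 52.2% of all genes, 27.2% higher and 24.9% lower. The 4 that rose were Ybx2, Ybx3, Ddx25 and Papolb in both genotypes. The median log2 difference of the 8 was 0.45 in WT and 0.43 in KO, against -0.04 and -0.07 over all genes. Both comparisons are between ages, and the markers of round spermatids summed to 4.42 to 13.9 CPM in WT at day 20 and to 802 to 806 CPM at day 26, while spermatogonial markers went from between 223 and 280 to between 148 and 163 CPM. Other lists moved as well, in WT from 0.421 to 3.74 up to 1286 to 2337 CPM for elongating spermatids and from 260 to 376 up to 1095 to 1805 CPM for Leydig cells, and from 1574 to 2244 down to 965 to 1110 CPM for Sertoli cells and from 540 to 922 down to 327 to 399 CPM for peritubular cells. In KO round spermatid markers went from between 11.8 and 110 to between 865 and 956 CPM, elongating spermatid markers from between 1.70 and 48.0 to between 2309 and 2404, spermatogonial markers from between 192 and 237 to between 133 and 134, Leydig cell markers from between 277 and 683 to between 872 and 999, Sertoli cell markers from between 1448 and 1613 to 1191, and peritubular markers from between 467 and 587 to between 245 and 281. Pachytene markers went from between 902 and 1746 to between 1934 and 2225 CPM in WT and from between 1453 and 1648 to between 2551 and 2597 in KO. Endothelial markers went from between 57.0 and 91.2 to between 43.9 and 44.8 CPM in WT and from between 44.0 and 64.3 to between 28.2 and 31.7 in KO. The part of this shift in cell types in the members' changes was not tested.

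**Figure D3:**
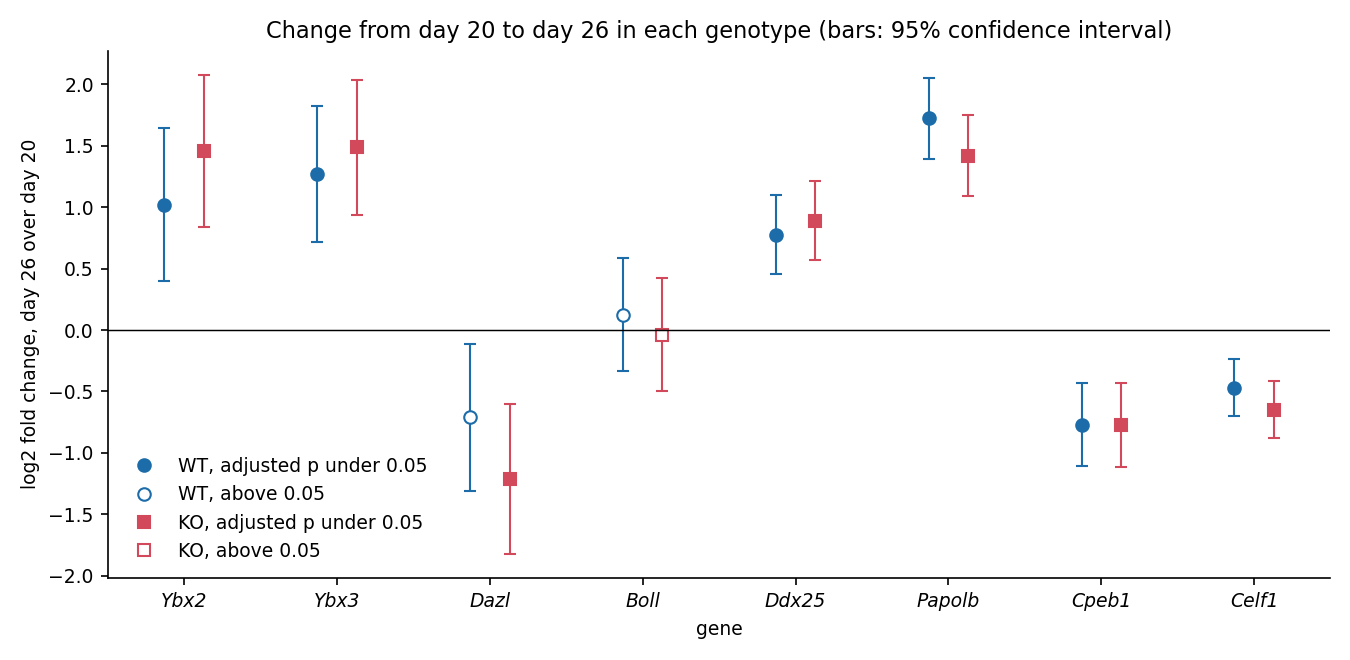
Log2 fold change of day 26 over day 20 (vertical axis) for each gene, in WT (circles) and KO (squares), with 95% confidence intervals and filled symbols where the adjusted p was under 0.05. Papolb at 1.72 is the highest WT value, Cpeb1 at -0.77 the lowest, and both Boll intervals include 0.

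Of the 3 intervals in WT, the first held the largest fitted step for Ybx2, Ybx3, Ddx25, Papolb, Cpeb1 and Celf1. For Ybx2 (0.61, SE 0.253, edgeR adjusted p = 0.0921) and Celf1 (-0.19, SE 0.0890, adjusted p = 0.146) that step was not called. Leaving out 1 library gave -0.22 to -0.13 for Celf1, against -0.21 to -0.14 between days 22 and 24. For Ybx2 it gave 0.34 to 0.80, against 0.075 to 0.40 between days 24 and 26. The order of their steps is therefore not settled. Between day 20 and day 22 in WT, 4 members were called, 3 higher and 1 lower, in a comparison that called 20.0% of all genes, 12.9% higher and 7.15% lower. Papolb rose by 1.02 on the log2 scale (SE 0.136, adjusted p = 8.61e-05), Ybx3 by 0.66 (SE 0.225, adjusted p = 0.0415) and Ddx25 by 0.45 (SE 0.130, adjusted p = 0.0194), and Cpeb1 had a difference of -0.41 (SE 0.128, adjusted p = 0.0270). The call for Ybx3 was lost without WT_d20_2 (0.41, adjusted p = 0.0678), WT_d20 replicate 4, WT_d22 replicate 1, 3 or 4, or KO_d24 replicate 1 or 2. The call for Cpeb1 was lost without WT_d20 replicate 1 or 4 or WT_d22 replicate 1 or 4. Between days 22 and 24 no member was called, with edgeR calling 5.92% of all genes and DESeq2 none of the 8, and no member had an unadjusted p under 0.05. Between days 24 and 26 no member was called by edgeR or DESeq2, in a comparison that called 0.274% of all genes, and 1 member, Papolb, had an unadjusted p under 0.05 (log2 difference 0.43, adjusted p = 0.556).

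The comparison of KO with WT asks whether these transcripts depend on ATAD2, and 1 member at 1 day was called. At day 20 Papolb was higher in KO. Its 4 KO libraries lay between 263 and 341 CPM and its 4 WT libraries between 144 and 234 CPM, a log2 difference of 0.55 (SE 0.135, edgeR adjusted p = 0.0238) and a fold of 1.47. That comparison called 3.34% of all genes, and the 2 genotypes failed to overlap for 1 of the 8 members and for 4.71% of all genes. The other 7 members had log2 differences from -0.10 (Cpeb1) to 0.24 (Dazl) at day 20, none called. Without WT_d20_2 they ran from -0.20 (Cpeb1) to 0.53 (Dazl, adjusted p = 0.143), with Boll at 0.37, Ddx25 at 0.27, Ybx2 at -0.19 and Ybx3 at -0.12, and none was called. Round spermatid markers at day 20 summed to 11.8 to 110 CPM in KO and 4.42 to 13.9 CPM in WT, and those of elongating spermatids to 1.70 to 48.0 and 0.421 to 3.74 CPM, higher in 3 of the 4 KO libraries than in every WT library, with all 8 and all 6 markers found in both groups. Leydig cell markers summed to 277 to 683 CPM in KO and 260 to 376 CPM in WT, peritubular markers to 467 to 587 and 540 to 922 CPM, Sertoli cell markers to 1448 to 1613 and 1574 to 2244 CPM, and spermatogonial markers to 192 to 237 and 223 to 280 CPM. Pachytene markers summed to 1453 to 1648 CPM in KO and 902 to 1746 CPM in WT, and early meiotic markers to 650 to 981 and 739 to 1187 CPM. In KO replicates 1 to 4, round spermatid markers summed to 28.6, 11.8, 64.7 and 110 CPM and Papolb stood at 341, 275, 263 and 281 CPM. In WT replicates 1 to 4, those markers summed to 7.39, 4.42, 5.26 and 13.9 CPM and Papolb stood at 234, 197, 144 and 215 CPM. The part of these cells in the Papolb difference was not tested. Epididymal markers at day 20 summed to 276 CPM in WT_d20 replicate 3 and to 50.6 CPM in KO_d20 replicate 3, the lowest libraries of their groups for Papolb. They summed to at most 2.16 CPM in the other libraries of that day. Replicate 2 held most of them in both genotypes at days 24 and 26. It was the lower for Papolb at day 24 (467 CPM in WT and 482 CPM in KO) and the higher at day 26 (682 and 801 CPM). The part of such tissue in the Papolb levels was not tested.

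The Papolb call was lost without WT_d20_2 (log2 difference 0.54, adjusted p = 0.0512), without WT_d20 replicate 3 (0.44, 0.0805), without KO_d20 replicate 1 (0.47, 0.0840), without KO_d20 replicate 4 (0.57, 0.0669) and in a fit of the day 20 libraries alone (0.55, 0.319), and each of these differences was above 0. At the later days the Papolb difference was -0.01 at day 22 (95% interval -0.29 to 0.27), 0.00 at day 24 (-0.39 to 0.40) and 0.25 at day 26 (-0.15 to 0.64). The test of whether the KO effect on Papolb differed between the 4 days gave an unadjusted p of 0.0364 and an adjusted p of 0.516 in edgeR. By that test edgeR and DESeq2 called no member, and edgeR called 0.00582% of all genes. Over the mean of the 4 days the Papolb difference was 0.20 (SE 0.0824, adjusted p = 0.145), and no member was called by edgeR or DESeq2 where edgeR called 7.08% of all genes. Papolb was the 1 member with an unadjusted p under 0.05 there.

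**Figure D4:**
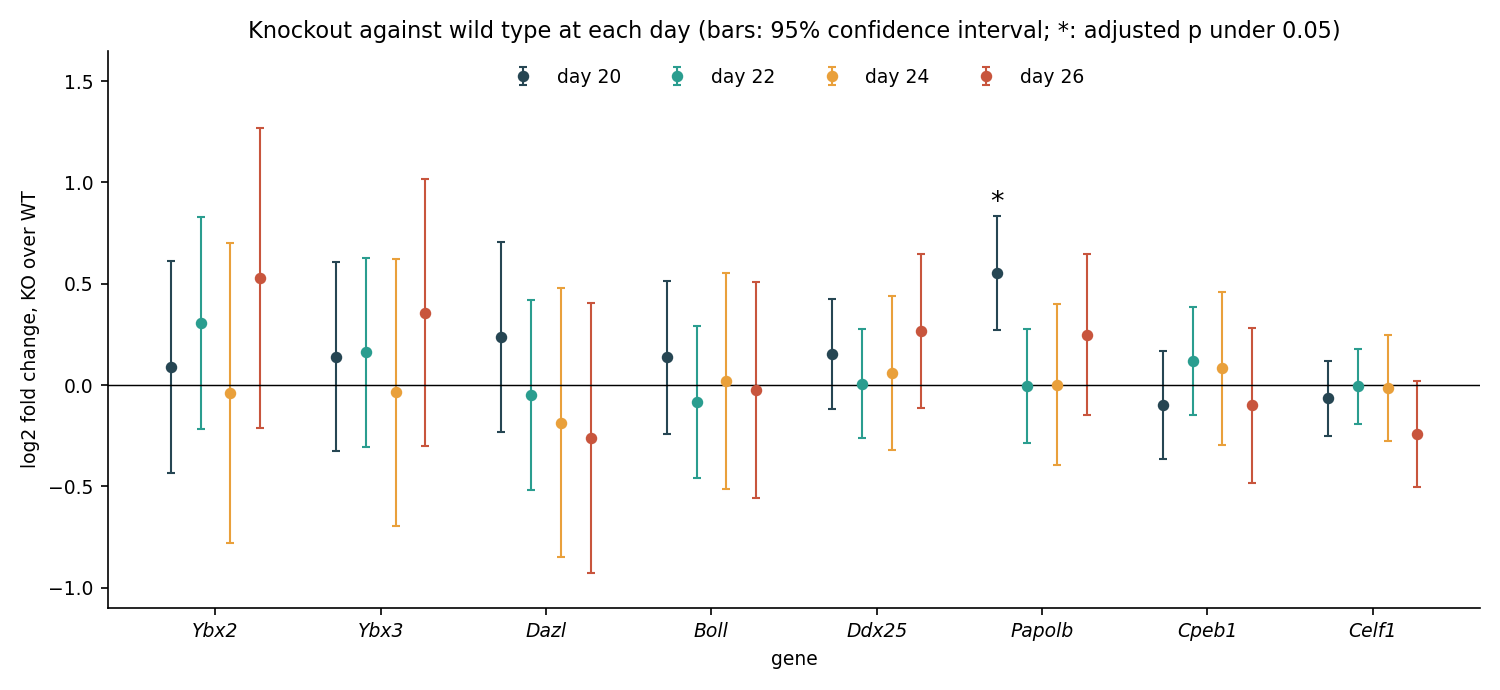
Log2 fold change of KO over WT (vertical axis) for each gene at days 20, 22, 24 and 26, with 95% confidence intervals from the fit over all 24 libraries and a star where the adjusted p was under 0.05. The Papolb value of 0.55 at day 20 carries the star, and the intervals of the other 7 genes include 0 at each day.

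At day 22 no member was called by edgeR or DESeq2 (2.51% of all genes were called), none had an unadjusted p under 0.05, and KO and WT libraries overlapped for all 8, as they did for all but 8.09% of genes. Ybx2 had the largest difference, 0.31 (95% interval -0.22 to 0.83, and 0.19 without KO_d22 replicate 4), and Ddx25, Papolb and Celf1 had differences of 0.01, -0.01 and -0.01 with intervals within -0.29 and 0.28. At day 24 no member was called by either tool (0.0874% of all genes), none had an unadjusted p under 0.05, and the differences ran from -0.19 for Dazl (-0.85 to 0.48) to 0.08 for Cpeb1. Leaving out 1 library moved these 2 values to between -0.24 and -0.11 and to between 0.0048 and 0.16. With 2 libraries per genotype, KO and WT did not overlap for Dazl alone of the 8 and for 44.0% of all genes.

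At day 26 no member was called by the fit over all libraries or by DESeq2 (0.0466% of all genes in edgeR). Atad2 itself missed the threshold in edgeR on that day (log2 difference -1.25, adjusted p = 0.0628), so a gene not called there may still differ. None had an unadjusted p under 0.05 in edgeR. KO and WT libraries did not overlap for 7 of the 8 members, all but Boll, where 59.0% of all genes did not overlap. KO was the higher for Ybx2 (1393 and 1647 CPM against 974 and 1135 CPM, log2 difference 0.53, 95% interval -0.21 to 1.27), Ybx3 (0.36, -0.30 to 1.02), Ddx25 (0.27, -0.11 to 0.65) and Papolb (0.25, -0.15 to 0.64). KO was the lower for Dazl (-0.26, -0.93 to 0.40), Celf1 (-0.24, -0.50 to 0.02) and Cpeb1 (-0.10, -0.48 to 0.28). In a fit of the 4 libraries of day 26 alone, which called 2104 of 16465 genes, Ybx2 (0.54, adjusted p = 0.0141) and Ybx3 (0.37, adjusted p = 0.0314) were called. On that day markers of pachytene spermatocytes summed to 2551 to 2597 CPM in KO and 1934 to 2225 CPM in WT, peritubular markers to 245 to 281 and 327 to 399 CPM, and Leydig cell markers to 872 to 999 and 1095 to 1805 CPM. Round spermatid markers summed to 865 to 956 CPM in KO and 802 to 806 CPM in WT, spermatogonial markers to 133 to 134 and 148 to 163 CPM, Sertoli cell markers to 1191 in both KO libraries and 965 to 1110 CPM in WT, and elongating spermatid markers to 2309 to 2404 and 1286 to 2337 CPM. Their part in the members' differences was not tested.

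Libraries of the same genotype and day also differed from each other in a patterned way. After each group's mean was taken away, Ybx2 and Ybx3 had a Pearson correlation of 0.952 over the 24 libraries, Dazl and Boll of 0.818, and Ddx25 and Papolb of 0.799. Without WT_d20_2 these were 0.855, 0.688 and 0.950. Ybx2 ran against Dazl within groups (-0.762, and -0.554 without WT_d20_2) and against Boll (-0.752, and -0.478). In WT_d20_2 Ybx2 was at 205 CPM against 500 to 701 in the other 3 WT libraries of that day, Ybx3 at 156 against 325 to 458, Dazl at 1124 against 513 to 598 and Boll at 324 against 146 to 211. Such correlations describe these libraries, in which the genes share each library's depth, scaling and cell content, and carry no test.

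**Figure D5:**
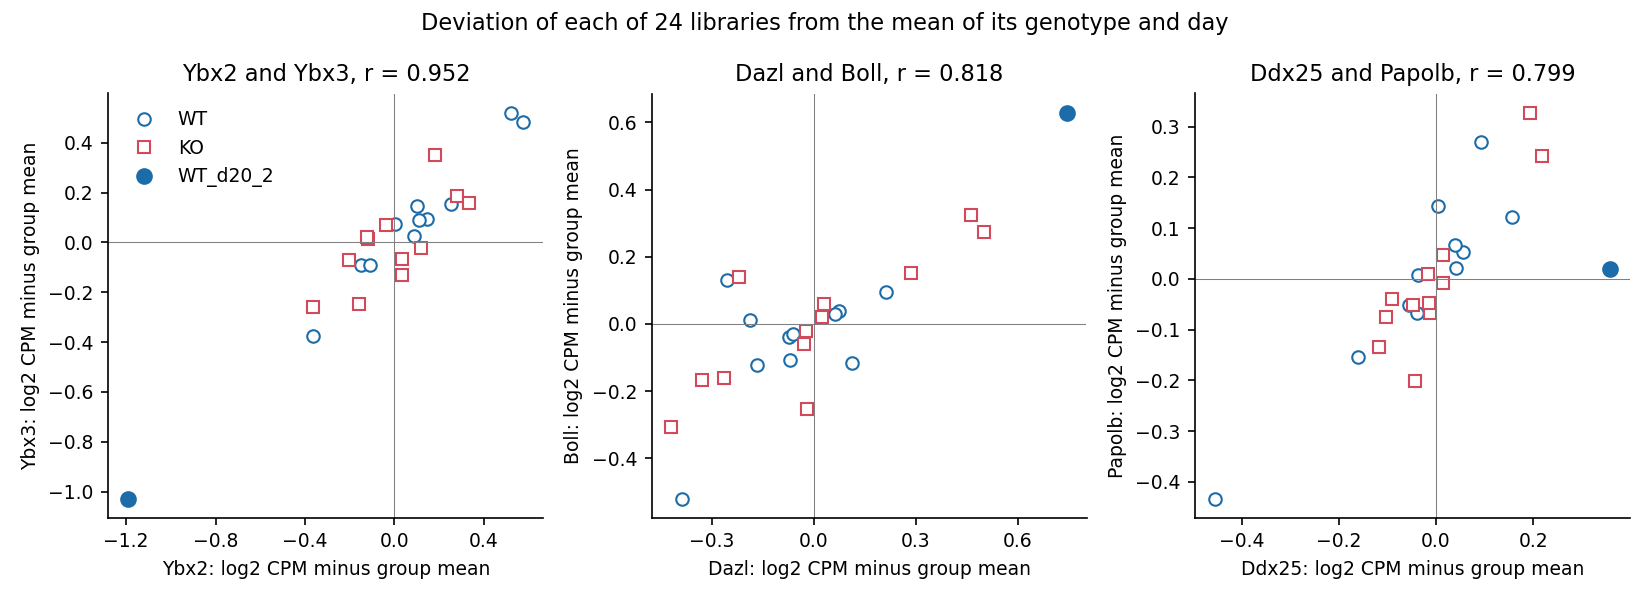
Deviation of log2 CPM from the mean of the genotype and day, 1 point per library (24 in all), for Ybx2 and Ybx3, Dazl and Boll, and Ddx25 and Papolb. The filled circle is WT_d20_2, which lies at the far end for the first 2 pairs and away from the line of the third, where r is 0.799 with it and 0.950 without it.

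Genes most like each member over the 24 libraries, by the Pearson correlation of log2 CPM, were Dcp1b (0.988) and Ccdc92 (0.985) for Ybx2, Phkg2 (0.989) and Rab3ip (0.988) for Ybx3, B630005N14Rik (0.979) and Yes1 (0.955) for Dazl, and Pex13 (0.964) and Zfp943 (0.961) for Boll. For Ddx25 they were Gtf2a1l (0.979) and Ccdc89 (0.977), for Papolb Btbd16 (0.987) and Tmem232 (0.986), for Cpeb1 Srsf2 (0.950) and Cldn11 (0.948), and for Celf1 Ice1 (0.962) and Spin1 (0.962). No member was among the nearest 2 of another. Among the 8, Ybx2 and Ybx3 (0.969), Ddx25 and Papolb (0.948) and Cpeb1 and Celf1 (0.900) were the closest pairs.

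The members were set beside 112 tested genes of the same pathways, in 8 lists. From day 20 to day 26 in WT, 36 of the 112 rose and 28 fell, where 24.4% of all genes were called higher and 18.1% lower, with a median log2 difference of -0.03 against -0.04 over all genes. Of the 6 other cold-shock proteins Ybx1, the Y-box protein of most cells, rose (1.04, SE 0.263, adjusted p = 0.00325) and 3 fell, among them Lin28a (-0.72, adjusted p = 0.0102), an RNA-binding protein of spermatogonia, and Csdc2 (-0.72, adjusted p = 0.0237). Of 6 DAZ-associated, PUMILIO and NANOS genes 3 fell, with Nanos3 at -2.04 (SE 0.572, adjusted p = 0.00676, from 11 to 17 counts per library at day 20 and 4 at day 26) and Nanos1 at -0.68 (adjusted p = 0.0126). Among 14 poly(A)-binding and cap-binding genes 6 rose and none fell, with the testis poly(A)-binding protein Pabpc2 at 1.23 (SE 0.158, adjusted p = 2.02e-06) and Pabpc1l at 2.68 (adjusted p = 0.000162). Of 19 polyadenylation genes 4 rose and 5 fell. Fam46c (3.05, SE 0.232, adjusted p = 1.86e-08) and Fam46b (2.31, adjusted p = 9.05e-07), both non-canonical poly(A) polymerases, rose beside Papolb, while Papolg (-0.73, adjusted p = 0.0277) and Papd4 (-0.71, adjusted p = 0.00740) fell.

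Of 16 CELF, MBNL, PTB and related splicing regulators 5 rose and 5 fell. Celf3 (5.76, SE 0.589, adjusted p = 3.16e-07) and Celf6 (2.17, adjusted p = 1.56e-06) rose where Celf1 fell, and Celf2 fell with it (-0.62, adjusted p = 0.000896), as did Mbnl3 (-0.75, adjusted p = 0.00745). Of 15 germ granule and chromatoid body genes 5 rose and 3 fell, with the Tudor-domain genes Tdrd6 at 1.27 (adjusted p = 0.000176) and Tdrd7 at 1.22 (adjusted p = 2.81e-07), and with Ddx3y at -0.75 (adjusted p = 0.0245) and the exonuclease gene Xrn1 at -0.67 (adjusted p = 0.0223). Of 24 other RNA-binding genes of the germ line 3 rose and 9 fell, Adad1 (1.31, adjusted p = 5.36e-07) and Igf2bp3 (1.18, adjusted p = 0.000155) being the largest rises and Patl2 (-1.54, adjusted p = 0.000731) and Stau2 (-0.80, adjusted p = 0.0165) the largest falls.

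All 12 genes listed as mRNAs stored in spermatids rose from day 20 to day 26 in WT. Their median log2 difference was 8.71 in WT, the same when genes with at most 3 counts in each library of a group took the value of their lower bound, and 5.02 in KO. Prm1, which encodes a protamine, had 0 to 10 counts per WT library at day 20 and 5370 to 16299 at day 26, and Tnp1, a transition protein gene with 0 to 3 counts per library at day 20, was at least 825-fold higher at day 26. The 4 members that rose had folds of 1.71 to 3.30 in WT, from group means of 198 to 520 CPM at day 20.

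In KO against WT, 10 of the 112 were called at day 20 and 4 at day 22, all of them higher, none at days 24 and 26, and 8 over the mean of the 4 days, all higher. Over all genes the share called was 3.34% at day 20 (511 of the 573 higher), 2.51% at day 22 (217 of 431 higher) and 7.08% over the mean of the days (604 of 1215 higher). The share called higher, which matches the direction of these calls, was 2.98%, 1.26% and 3.52% of all genes. The median log2 difference of the 112 at day 20 was 0.02, against 0.00 over all genes, and that of the 12 stored mRNAs was 3.19, with lower bounds used in the same way. Of the 10 at day 20, 5 were stored mRNAs: Gapdhs (log2 difference 4.45, adjusted p = 0.0110), Akap4 (3.97, adjusted p = 0.0118), Odf1 (3.47, adjusted p = 0.0114), Smcp (3.92, adjusted p = 0.0299) and Pgk2 (0.80, adjusted p = 0.0131). The others were Celf3 (2.53, SE 0.589, adjusted p = 0.0195), Fam46b (0.92, adjusted p = 0.0362), Celf6 (0.91, adjusted p = 0.0433), Fam46c (0.81, adjusted p = 0.0245) and Tdrd7 (0.42, adjusted p = 0.0340). This comparison and the age comparison in WT share the WT libraries of day 20. The calls depended on which libraries were in the fit, and of the 10 at day 20 there were 0 without WT_d20 replicate 3, 1 without KO_d20 replicate 4, 2 without WT_d20_2, and 4 without WT_d20 replicate 1 or without KO_d20 replicate 3. The 4 at day 22 were the protamine and transition protein genes Prm1, Prm2, Tnp1 and Tnp2, with log2 differences of 4.46 to 5.53. Prm1 had 2 to 16 counts per WT library and 20 to 1086 per KO library, and Tnp1 4 to 16 and 13 to 671. None of the 4 was called without KO_d22 replicate 2 or without any 1 of the 4 WT_d22 libraries, and 2 were without KO_d22 replicate 3. Patl2, which encodes a translational repressor known from oocytes, was among the 8 called over the mean of the days (0.53, SE 0.155, adjusted p = 0.0435), the other 7 being stored mRNAs. Among the leave-outs of days 20 and 22, the Patl2 call was lost without WT_d20 replicate 1 or 4 and without KO_d20 replicate 1, 3 or 4. It was also lost without WT_d22 replicate 2 or 4 and without KO_d22 replicate 2 or 4. Over the mean of the days 0 were called without WT_d24 replicate 2, KO_d24 replicate 1 or WT_d26 replicate 2, 3 without WT_d26 replicate 1, 4 without KO_d20 replicate 4 or KO_d26 replicate 2, 13 without KO_d20 replicate 2 and 14 without KO_d22 replicate 1. The daily and the mean comparisons share their libraries. At day 22, too, 3 of the 4 KO libraries held more round spermatid markers than every WT library (102 to 414 CPM in all KO libraries, 65.9 to 105 CPM in WT). Elongating spermatid markers at day 22 summed to 320 CPM in KO_d22 replicate 2, to 30.1 to 128 CPM in the other KO libraries and to 13.6 to 31.9 CPM in WT, and the part of these cells in the list's calls was not tested.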

How the data were processed

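Total RNA of mouse testis was sequenced in 24 libraries (paired-end, stranded, rRNA-depleted). The authors aligned reads to mm10 with STAR 2.7.11b and deposited HTSeq counts per gene, 1 table per library, with reads at several places discarded. The 5 tally lines that name no gene were left out. Reads without a gene made up 45.1% to 58.5% of each library. Groups came from the labels. Counts were filtered (edgeR filterByExpr, minimum count 10), scaled by TMM and fitted with edgeR 4.0.16 (quasi-likelihood test, robust, limma 3.58.1, R 4.3.3) over all 24 libraries with 1 mean per group. P-values were adjusted by Benjamini-Hochberg over the 17170 genes tested (threshold 0.05), and intervals are 95%. Log2 CPM for correlations used a prior count of 2. Alternatives were RLE scaling, no filter, a minimum of 50, libraries of 1 day, a replicate block, DESeq2 1.42.0 and leaving out each library. All 8 members are named. Genes of each pathway list were named where the list had calls, at most 4 per list in each genotype comparison and the 2 largest rises and 2 largest falls with age in WT (Smcp, Prm2 and Tnp2 fall outside this rule and were named after their values were seen), and the 2 genes most correlated with each member were named. Members and lists were chosen with earlier results of these data known. Gene positions came from GENCODE models of mm10, and exon lengths were found for 96.0% of tested genes. No 2 replicates agreed within sampling noise. The script was tested on simulated data.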

Additional observations from a re-analysis of the deposited data

Results flagged for a closer look

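Dazl in WT_d20_2 was at 1124 CPM, far from the other 3 WT libraries of day 20, which lay between 513 and 598 CPM. The gap to the nearest library made up 0.86 of the group's whole range, above Dixon's 95% critical value for 4 samples. It was the 1 such case among 32 combinations of a member and a group of 4, and chance gives about 1 in 20. The KO libraries of day 20 also held Dazl levels of 980 and 1106 CPM.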

How the results depend on the processing

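With the libraries of 1 day alone, 0 members were called between KO and WT at day 20 and 2 at day 26. The rule for pairing by replicate number (every pair over 0.1) was not met. Correlations of same-numbered WT and KO libraries were 0.071, 0.23, 0.25 and 0.41 at day 20, -0.46 to -0.025 at day 22, 0.39 at day 24 and 0.42 at day 26, where 2 pairs must share 1 value, and 14 of 24 libraries were closest to their own number. With a replicate block, 3 members were called between days 20 and 26 in WT, without Ybx2 (0.81, adjusted p = 0.173), Ybx3 (1.12, 0.0575) and Celf1 (-0.42, 0.0871), and 6 in KO, without Ybx2 (1.12, 0.0700). With it 1 was called between days 20 and 22, without Ybx3, Ddx25 and Cpeb1. In that fit each group's term stood for its level at replicate 1. The age comparisons with the block thus set replicate 1 of 1 day against replicate 1 of another. They do not compare group means, so these counts cannot show whether the age calls of the main fit hold. Leaving out 1 library gave 0 to 1 members called at day 20 and 2 to 4 between days 20 and 22. No called value changed sign. The uncalled values that did were as follows, as log2 differences. For KO against WT at day 22, Ddx25 was -0.00097 under the stricter filter, Papolb 0.016 under RLE, 0.044 with no filter, 0.0096 with that day alone and 0.016 in DESeq2, and Celf1 0.015, 0.046, 0.011 and 0.015. Boll at day 26 was 0.024 under RLE and in DESeq2, and its KO age difference 0.052 in both. Cpeb1 over the mean of days was -0.0040 under the stricter filter and -0.00037 with the replicate block. Leaving out 1 library gave, at day 20, -0.19 to 0.26 for Ybx2, -0.12 to 0.32 for Ybx3 and -0.012 to 0.37 for Boll. At day 22 it gave -0.25 to 0.038 for Dazl, -0.064 to 0.080 for Ddx25, -0.13 to 0.059 for Papolb and -0.070 to 0.053 for Celf1. At day 24 it gave -0.17 to 0.12 for Ybx2, -0.11 to 0.060 for Ybx3, -0.0044 to 0.059 for Boll, -0.033 to 0.057 for Papolb and -0.068 to 0.040 for Celf1, and at day 26 -0.065 to 0.059 for Boll. Over the mean of days it gave -0.12 to 0.017 for Dazl, -0.018 to 0.078 for Boll and -0.022 to 0.029 for Cpeb1. Between days 20 and 26 Boll ran from -0.060 to 0.33 in WT and from -0.13 to 0.078 in KO. Between days 20 and 22 Dazl ran from -0.36 to 0.062 and Boll from -0.019 to 0.37. The Papolb difference at day 20 had adjusted p-values of 0.00257 (DESeq2) to 0.319 (that day alone).

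Counts over all genes also moved. At day 20 the 573 calls became 5 with that day alone and 901 in DESeq2, at day 22 the 431 became 69 and 749, at day 24 the 15 became 40 in DESeq2 and 9 with the replicate block, and at day 26 the 8 became 2104 with that day alone, 153 in DESeq2 and 5 with the block. The 1215 calls over the mean of days became 1827 in DESeq2, and the 1 call of a KO effect that differs between days became 14 with the block and 273 in DESeq2. With the block the age comparisons again set replicate 1 of 1 day against replicate 1 of another, not group means. Age calls there were 4287 in WT (7292 in the main fit), 4721 in KO (8955) and 711 between days 20 and 22 (3437). Between days 24 and 26 the 47 calls became 2 with the block, against 190 in DESeq2. Leaving out 1 library gave 151 to 780 calls at day 20, 60 to 858 at day 22, 0 to 24 at day 24, 0 to 103 at day 26 (103 without WT_d20_2), 302 to 1737 over the mean of days, 0 to 140 for an effect that differs between days, 4724 to 7971 between days 20 and 26 in WT and 5829 to 10147 in KO, 2197 to 3764 between days 20 and 22, 171 to 1196 between days 22 and 24, and 1 to 206 between days 24 and 26. The leave-outs of the pathway lists were chosen after seeing the data. Days 24 and 26, with 2 libraries per genotype, had standard errors of 0.126 to 0.357 for the members' KO differences.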
